A study of Rattus norvegicus with 6 samples.

Results

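The genes described are Nr0b1, Nr5a1 and Inha, which encode DAX-1, SF-1 and the inhibin alpha subunit. All probe sets annotated to these 3 genes were taken, whichever way they differed. They were 4 of the 8740 probe sets other than controls on the array, an Affymetrix RG-U34 design of short oligonucleotides that are read together in probe sets. The array named 4736 genes by a probe set with 1 symbol. Nr0b1 had 1 probe set (X99470_at), Nr5a1 had 1 (D42156cds_at) and Inha had 2 (M32754cds_s_at and M36453_at). The suffix _s_at marks, in the array maker's naming, probes that may match several transcripts.

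RNA came from adrenal glands of 2 inbred rat strains, with 3 arrays of the spontaneously hypertensive rat (SHR) and 3 of the Wistar-Kyoto rat (WKY), its normotensive comparison strain. The labels used here give strain and tissue and no age, sex, treatment or animal number. Where replicates of a strain are not known to be separate animals, a p-value covers the variation among these RNA samples alone, and that may be technical. The question was how the adrenal transcripts of SHR and WKY differ. The deposited arrays shared 1 trimmed mean, and their medians lay between 798.3 and 899.5 intensity units. By hybridization times in the array settings, the arrays fell into 2 runs, taken here as times more than 60 minutes apart, the first with SHR replicate 1 and the 3 WKY arrays, the second with SHR replicates 2 and 3. SHR replicate 2 had the highest 3′ to 5′ ratio of the hexokinase control, 4.21, where no other array passed 2.54. The number of arrays, 3 per strain, limits the precision of every value.

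SF-1 is a nuclear receptor that the adrenal cortex and the gonads need in order to form, and it switches on many genes of steroid synthesis. DAX-1 is an unusual nuclear receptor encoded on the X chromosome. It lacks the customary DNA-binding domain and is known mainly as a repressor of transcription driven by SF-1, and its loss in humans leaves the adrenal cortex underdeveloped. The inhibin alpha subunit pairs with an activin beta subunit to form inhibin, a hormone that opposes activin. It is made in gonads and adrenal cortex, and its gene is a known target of SF-1. Mice without Inha develop adrenocortical tumours after removal of the gonads. Steroid-making cells of the cortex are the main site of all 3 transcripts in the adrenal gland.

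The sequence just upstream of each start site is shown because SF-1 is known to act on the promoters of Nr0b1 and Inha. The stretches are from RefSeq, build GRCr8, and read 5′ to 3′ on the strand of the gene. They lie at chrX:54707408-54707657 (plus strand) for Nr0b1, chr3:42896110-42896296 (minus strand) for Nr5a1 and chr9:84442859-84443108 (plus strand) for Inha. Nr5a1 is shown for 187 bases, since the 63 bases nearest its start site lie inside another of its RefSeq transcripts. Capitals mark matches, on either strand, to the nuclear receptor half-site AGGTCA, to the GATA core recognized by factors of that name, or to TGCGTCA, a variant of the cyclic AMP response element.
Nr0b1: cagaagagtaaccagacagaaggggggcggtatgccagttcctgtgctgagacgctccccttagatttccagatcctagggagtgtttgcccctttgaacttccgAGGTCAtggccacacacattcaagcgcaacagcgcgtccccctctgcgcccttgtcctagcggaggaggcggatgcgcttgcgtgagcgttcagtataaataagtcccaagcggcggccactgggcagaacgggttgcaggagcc
Nr5a1: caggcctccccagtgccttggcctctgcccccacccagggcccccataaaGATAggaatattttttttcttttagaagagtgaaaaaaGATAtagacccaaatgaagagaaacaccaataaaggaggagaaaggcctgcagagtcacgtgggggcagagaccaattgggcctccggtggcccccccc
Inha: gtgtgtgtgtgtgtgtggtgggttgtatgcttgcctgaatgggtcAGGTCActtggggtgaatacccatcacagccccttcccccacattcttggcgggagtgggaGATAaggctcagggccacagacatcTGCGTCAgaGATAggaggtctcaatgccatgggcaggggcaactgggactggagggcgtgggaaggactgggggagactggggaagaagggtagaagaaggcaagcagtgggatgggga
In the 250 bases upstream, the half-site was found once in Nr0b1, from -145 to -140 relative to the start site, and once in Inha, from -205 to -200. It was not found in Nr5a1, and 14.1% of the 33469 rat promoter windows of that length held it. The GATA core was found in Nr5a1, from -200 to -197 and from -162 to -159, and in Inha, from -144 to -141 and from -110 to -107, while 55.9% of windows held it. Inha also held the variant cyclic AMP element from -119 to -113, a match present in 1.7% of windows. The short cyclic AMP element TGACG, present in 18.2% of windows, matched Inha on the opposite strand inside that variant, from -117 to -113. The longer SF-1 form AAGGTCA, which contains the half-site, was not found in the windows of the 3 genes, and 4.0% of all windows held it. The same was true of the wider form AAGGNCA, held by 17.6% of windows, and of the full cyclic AMP element TGACGTCA, held by 1.6%. The half-site and the variant element were added to the search after the sequences had been read. A match is a run of letters and not a shown binding site.

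All 4 probe sets read higher in SHR than in WKY, and no WKY array reached the lowest SHR array in any of them. By comparison, SHR arrays lay wholly above WKY arrays in 10.2% of the 5244 probe sets tested, and wholly below in 10.5%. None of the 4 passed limma's test at an adjusted p of 0.05, which 1.95% of the tested probe sets did, and 3 of the 4 had an unadjusted p under 0.05 with a higher value in SHR, which 6.77% did. The strain differences of the 3 genes are therefore given below as values with their intervals, without a call. Differences are SHR minus WKY on the scale of log2(intensity + 181.5), which understates the change of dim probe sets. Over all tested probe sets the median difference was -0.0069.

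Nr0b1 showed the widest difference of the 4. Its intensities were 7020, 5558 and 5784 in SHR replicates 1 to 3, against 2332, 4172 and 3654 in WKY replicates 1 to 3. The lowest SHR array was 1.33 times the highest WKY array, and the WKY arrays were the more spread out, with a coefficient of variation of 28.0% there and 12.9% in SHR. Mean intensity was 6121 ± 787 in SHR and 3386 ± 948 in WKY (SD, n = 3 each). The log2 difference was 0.85 ± 0.22 (SE), a fold of 1.80 with a 95% interval of 1.26 to 2.58, and limma's adjusted p was 0.122 (unadjusted 0.00515). It was larger than the difference of 97.5% of the tested probe sets. WKY replicate 1 had the lowest reading, and without that array the difference was 0.62.

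Nr5a1 differed least. Its intensities were 10294, 11618 and 8553 in SHR replicates 1 to 3, against 7984, 8416 and 7478 in WKY replicates 1 to 3. The strains did not overlap, but by a margin of only 137.2 intensity units, between SHR replicate 3 and WKY replicate 2. Means were 10155 ± 1537 in SHR and 7959 ± 469 in WKY (SD, n = 3 each). The log2 difference was 0.34 ± 0.15 (SE), with a 95% interval from -0.0049 to 0.68 and a limma adjusted p of 0.367 (unadjusted 0.0527). A fold of up to 1.60, or none, thus lies within the interval.

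Inha was read by 2 probe sets. M32754cds_s_at gave 11963, 12214 and 13861 in SHR replicates 1 to 3, against 8921, 7627 and 8585 in WKY replicates 1 to 3. It had the tightest replicates of the 4, with coefficients of variation of 8.13% in SHR and 8.01% in WKY, and the lowest SHR array stood 3042 units above the highest WKY array. Means were 12679 ± 1031 in SHR and 8378 ± 671 in WKY (SD, n = 3 each), a log2 difference of 0.59 ± 0.13 (SE). The fold was 1.50 with a 95% interval of 1.22 to 1.84, and limma's adjusted p was 0.0732 (unadjusted 0.00179).

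The second Inha probe set, M36453_at, gave 6411, 8550 and 8540 in SHR replicates 1 to 3, against 5372, 4277 and 6337 in WKY replicates 1 to 3. SHR replicate 1 and WKY replicate 3 were only 74.9 units apart. Means were 7834 ± 1232 in SHR and 5329 ± 1030 in WKY (SD, n = 3 each). The log2 difference was 0.55 ± 0.19 (SE; fold 1.46, 95% interval 1.08 to 1.98), with a limma adjusted p of 0.242 (unadjusted 0.0205). Within an array, M32754cds_s_at minus M36453_at averaged 0.69 in SHR and 0.65 in WKY on the log2 scale. That gap shifted by 0.042 between strains (exact two-sided permutation test, p = 0.8).

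**Figure D1:**
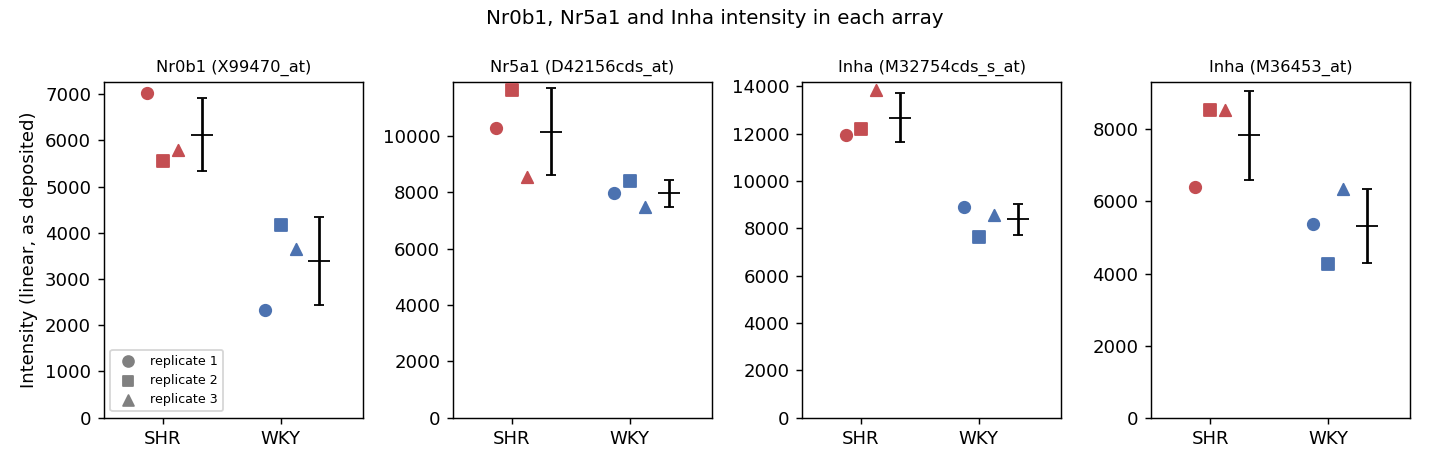
Intensity of each probe set of Nr0b1, Nr5a1 and Inha (linear axis from 0) in the 3 SHR and 3 WKY arrays. Marker shapes are replicate numbers and bars are mean ± SD. In each panel the SHR arrays lie above the WKY arrays, by 74.9 units in M36453_at and by 3042 units in M32754cds_s_at.

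**Figure D2:**
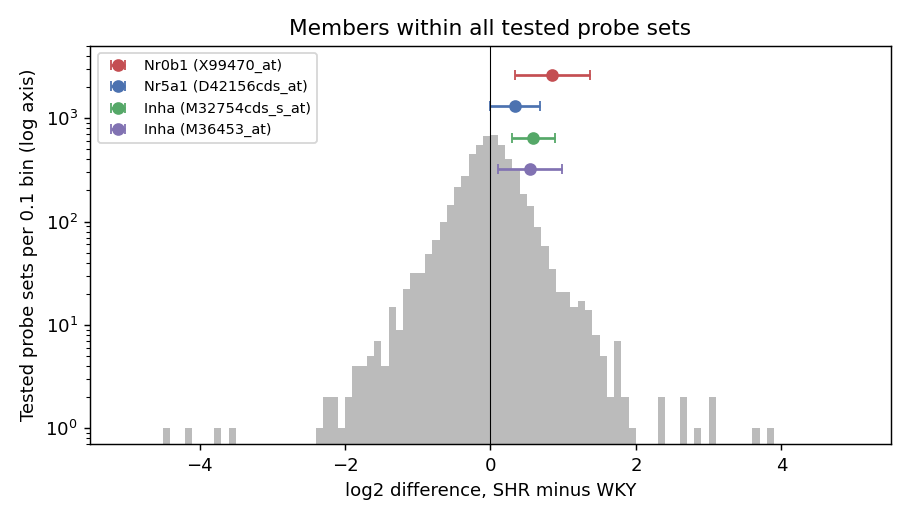
Histogram of the log2 difference, SHR minus WKY, over the 5244 tested probe sets (log vertical axis), with the 4 probe sets of the 3 genes drawn as points with 95% intervals at arbitrary heights. All 4 lie right of 0, with Nr5a1 at 0.34 and Nr0b1 at 0.85, and the Nr5a1 interval reaches 0.

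Exact permutation tests of each probe set over the 6 arrays gave p = 0.1, two-sided, the smallest value that 3 against 3 allows. The lack of overlap already given fixes that value, so it is no further support. Each difference was also set within the first hybridization run, which held SHR replicate 1 and all WKY arrays. Nr0b1 was at 1.05 there, Nr5a1 at 0.37, and Inha at 0.51 (M32754cds_s_at) and 0.28 (M36453_at). The fit with the run as a block gives the same 4 values by construction, since the second run has no WKY array. The limma adjusted p ran from 0.364 to 0.820 with the block, where 0.381% of tested probe sets passed, and from 0.515 to 0.845 in the first run alone, where 0.0191% passed. The first run holds 1 SHR array, which is assumed to vary like the WKY arrays. The value of M36453_at was lower within the run than the 0.55 over all arrays. In all 4 probe sets the SHR array of the first run lay above every WKY array, as it did in 30.1% of tested probe sets. For these 4 that already follows from the lack of overlap over all arrays, so it adds no separate result.

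Whether the 3 genes differed by unequal amounts was asked within each array, by subtracting their log2 values. Inha was taken from M32754cds_s_at, its brighter probe set. Such a subtraction has an arbitrary zero, because probe sets differ in response, and only its shift between strains is read. Nr0b1 minus Nr5a1 was 0.52 higher in SHR, Nr0b1 minus Inha 0.26 higher and Inha minus Nr5a1 0.25 higher. The strains overlapped in all 3, and exact two-sided permutation tests gave p = 0.3, 0.5 and 0.4, each 0.5 when adjusted over the 3. Single arrays moved these values: Nr0b1 minus Nr5a1 was 0.28 without WKY replicate 1, Inha minus Nr5a1 was 0.071 without SHR replicate 3 and 0.15 without WKY replicate 2, and Nr0b1 minus Inha was 0.12 without SHR replicate 1 and -0.015 without WKY replicate 1. An order of response among the 3 genes was not shown at this number of arrays.

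Tissue makeup was read from marker lists. In whole glands, fewer cells of a type and less RNA per cell cannot be told apart. Of 8 cortex markers, 6 were measured, their summed intensity ran from 288371 to 420281 in SHR and from 319985 to 466238 in WKY, and 0 of the 6 passed (limma, 0 also at an unadjusted p under 0.05). Star, which brings cholesterol into mitochondria, averaged 74944 ± 17177 in SHR and 85421 ± 17100 in WKY. Cyp11a1, the side-chain cleavage enzyme, averaged 84806 ± 11467 in SHR and 89229 ± 11858 in WKY (SD, n = 3 each). 

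Each gene was then set against the mean log2 value of the 6 cortex markers in the same array. Nr0b1 relative to the cortex markers was 0.98 higher in SHR, with no overlap between strains. Inha was 0.72 higher, also with no overlap, and Nr5a1 was 0.47 higher with overlap. Nr0b1 and Inha lay wholly above WKY before the subtraction too. How many other genes would separate the strains in this measure was not counted. The exact two-sided permutation p was 0.1 for Nr0b1, 0.1 for Inha and 0.3 for Nr5a1, or 0.15, 0.15 and 0.3 adjusted over the 3. The cortex marker mean itself was at -0.13, and that shift enters each of these values. The 6 markers ran from -0.56 (Cyp21a1) to 0.24. With their median in place of the mean, the values were 1.00 for Nr0b1, 0.74 for Inha and 0.48 for Nr5a1. The value for Nr5a1 was 0.23 without SHR replicate 2 and 0.73 without SHR replicate 3.

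Markers of other cell types differed in part between the strains. Over all 3144 tested genes, 28 rose and 24 fell, and 211 were lower at an unadjusted limma p under 0.05. The 9 medulla markers, all measured, summed to between 42065 and 53446 in SHR, below the 56556 to 65270 of WKY. Of them, 5 were lower at an unadjusted limma p under 0.05, and 1 fell past the adjusted threshold. That gene was Dbh, which makes noradrenaline, at 2513 ± 67.8 in SHR against 6425 ± 877 in WKY (log2 difference -1.29, limma adjusted p = 0.00548). Pnmt, which makes adrenaline, stood at -0.57 (0.0764). The other 7 medulla markers were not called. Slc18a1, a vesicular monoamine transporter gene, was at -0.82, Npy, which encodes neuropeptide Y, at -0.58, Scg2, a secretogranin gene, at -0.53 and Penk, which encodes proenkephalin, at -0.45. Chgb, a chromogranin gene, was at -0.081, Th, which encodes tyrosine hydroxylase, at -0.02 and Ddc, which encodes the decarboxylase that follows it, at 0.14. The strains overlapped in these 3 and in Npy. Fibroblast and capsule matrix markers (7 of 7 measured, 4 fell) summed to 58617 to 66337 in SHR and 87527 to 100762 in WKY. Leukocyte markers (6 of 9 measured, 2 fell) summed to 18428 to 21970 in SHR and 27603 to 53237 in WKY. The 2 were Cd74 at -1.76 (limma adjusted p = 0.0429) and RT1-Ba at -1.31 (0.0297), and RT1-Da was at -1.10 (0.0744). The strains overlapped in the other measured ones, Cd4 at -0.43, Lyz2 at -0.06 and Ptprc at 0.05. Of 4 measured fat markers 1 fell, and their sums overlapped. Smooth muscle markers (3 of 5 measured, 1 rose) summed to 7229 to 8384 in SHR and 4144 to 6386 in WKY. The 1 was Acta2, smooth muscle actin, at 3946 ± 345 in SHR and 1442 ± 42.5 in WKY (log2 difference 1.34, limma adjusted p = 0.00491). By its dimmer probe sets Acta2 was not called, at 0.61 (X06801cds_f_at, limma adjusted p = 0.0978) and 0.73 (X06801cds_i_at, 0.146). Tagln was at 0.14 and Myh11 at -0.14, both with overlap. The 3 endothelial markers overlapped with 0 called (0 at an unadjusted p under 0.05). Array intensities stay above 0 whether or not a transcript is present, so no marker reads 0. The part of these shifts in the differences of Nr0b1, Nr5a1 and Inha was not tested.

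**Figure D3:**
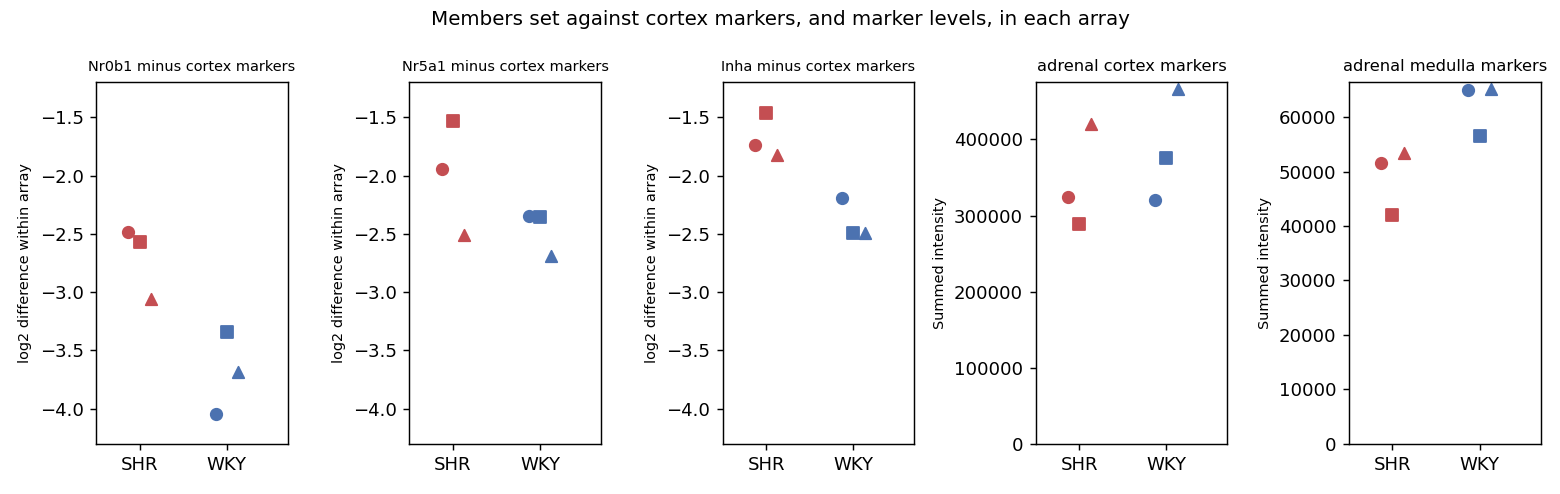
The 3 left panels plot, for each array, the log2 value of Nr0b1, Nr5a1 or Inha minus the mean log2 value of 6 cortex markers. The 2 right panels plot the summed intensity of cortex and of medulla markers on axes from 0. Marker shapes are replicate numbers as in the plot of intensities. Nr0b1 and Inha separate the strains, as they did before the subtraction, while Nr5a1 and the cortex sum overlap, and the medulla sum is lower in SHR.

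The targets of SF-1 in adrenal steroid synthesis were the first related list. Of 20 listed genes 9 were tested, 0 passed and 1 had an unadjusted limma p under 0.05, which 13.9% of all tested probe sets had in either direction. Their median difference was -0.073, beside -0.0099 over all 3144 tested genes, of which 28 rose and 24 fell. The smallest p belonged to Hsd11b2, which inactivates corticosterone, at 12321 ± 1804 in SHR and 8792 ± 1566 in WKY (log2 difference 0.48, limma adjusted p = 0.258). Soat1, which stores cholesterol as esters, was at 0.31 (0.583), Cyp21a1, a steroid hydroxylase gene, at -0.56 (0.633) and Por, which passes electrons to microsomal P450 enzymes, at 0.18 (0.675). Of the early steps, Star was at -0.20 (0.707) and Cyp11a1 at -0.07 (0.859).

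Targets of SF-1 known from gonad and pituitary gave 1 call among 8 tested of 12 listed, with 3 at an unadjusted p under 0.05, all higher, and a median of 0.20. Of all 3144 tested genes, 198 were higher at an unadjusted limma p under 0.05. Prlr, the prolactin receptor gene, rose in its brightest probe set (L48060_s_at), at 44841, 42390 and 45026 in SHR against 29122, 26813 and 30629 in WKY. That is a log2 difference of 0.61 ± 0.10 (SE, limma adjusted p = 0.0271), and the call was lost with the run as a block (0.232) and with any 1 array left out (0.0516 to 0.112), among other fits. The other 4 tested Prlr probe sets were not called: M19304_at was at 0.64 (limma adjusted p = 0.126), M74152_s_at at 0.25 (0.439), M34083_at at 0.09 (0.848) and U34897mRNA_at, of opposite sign, at -0.27 (0.755). Lhb, the luteinizing hormone beta subunit, was at 0.77 (0.109), Fshr, the follicle-stimulating hormone receptor, at 1.25 (0.164), and Lhcgr, the luteinizing hormone receptor, at 0.26 (0.692). The Fshr intensities were 1230, 2240 and 1735 in SHR and 1179, 460 and 373 in WKY. Lhb averaged 1985 in SHR and 1082 in WKY. Both genes thus read low on arrays whose medians were 798.3 to 899.5.

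Partners and regulators of SF-1 and DAX-1 gave 0 calls among 17 tested genes of 36 listed, with 1 higher and 1 lower at an unadjusted p under 0.05 and a median of 0.074. Jun, an AP-1 subunit, was at -0.49 (limma adjusted p = 0.140) and Usf2, an E-box-binding factor, at 0.45 (0.329). These counts take each gene by its brightest probe set. Of the 3 dimmer Jun probe sets, rc_AA945867_at passed and fell by 1.37 (limma adjusted p = 0.00922), X17163cds_s_at was at -0.46 (0.541) and rc_AA944014_at at 0.58 (0.673). Nr0b2 was at 0.47 by its brightest probe set (limma adjusted p = 0.448). Its dimmer ones were not called either, with D86580_at at 0.82 (0.0607) and D86745exon_s_at at 0.98 (0.380). Nr4a1 and Nr4a3, orphan receptors whose genes respond rapidly to corticotropin, were at 1.44 ± 0.70 and 1.27 ± 0.62 (SE; adjusted p = 0.414 each). Their wide errors came with wide replicates. Nr4a1 read 38327, 56494 and 77273 in SHR replicates 1 to 3 and 5541, 29110 and 50340 in WKY replicates 1 to 3. WKY replicate 1 was the lowest array for both Nr4a1 and Nr0b1, while within SHR the array highest in Nr0b1 was the lowest in Nr4a1. By the dimmer probe sets, Nr4a1 was at 1.36 (U17254_at, limma adjusted p = 0.395) and Nr4a3 at 0.27 (X86003_at, 0.861).

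By the brightest probe set of each gene, the inhibin, activin and TGF-beta family gave 0 calls among 19 tested genes of 42 listed. There were 0 also at an unadjusted p under 0.05, and the median was 0.0034. Inhba, which encodes the beta A subunit that pairs with the alpha subunit, was at 0.16 (limma adjusted p = 0.900), and Inhbb was not among the tested genes. The activin receptor genes Acvr1b and Acvr2b were at -0.13 (0.787) and 0.045 (0.937). The dimmer Acvr2b probe set, L10640_s_at, was at -0.50 (0.528). Tgfbr3, betaglycan, a co-receptor for inhibin, was at 0.25 (0.727). Its dimmer probe set, M80784_s_at, was at 0.69 (0.0890), with an unadjusted limma p of 0.00272. By the brightest probe set, the 4 of smallest p were Acvrl1, a TGF-beta family receptor gene, at -0.45 (0.430), Smad9 at 0.73 (0.437), the ligand gene Tgfb3 at 0.40 (0.485) and Fstl1, a follistatin-like glycoprotein gene, at -0.25 (0.559).

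Genes of corticotropin and cyclic AMP signalling gave 0 calls among 17 tested of 30 listed, with 1 higher and 1 lower at an unadjusted p under 0.05 and a median of 0.0038. Protein kinase A subunits held the 3 smallest p-values. Prkar2b, a regulatory subunit, was at 0.67 (limma adjusted p = 0.162), Prkaca, a catalytic subunit, at -0.56 (0.264) and Prkar1a, a regulatory subunit, at -0.23 (0.444). The dimmer Prkaca probe set, X57986mRNA_s_at, was of opposite sign, at 0.32 (0.716). Pde2a, which degrades cyclic nucleotides, was at -0.37 (0.447). Neither Mc2r, the corticotropin receptor gene, nor its accessory protein gene Mrap was named by a probe set of its own.

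**Figure D4:**
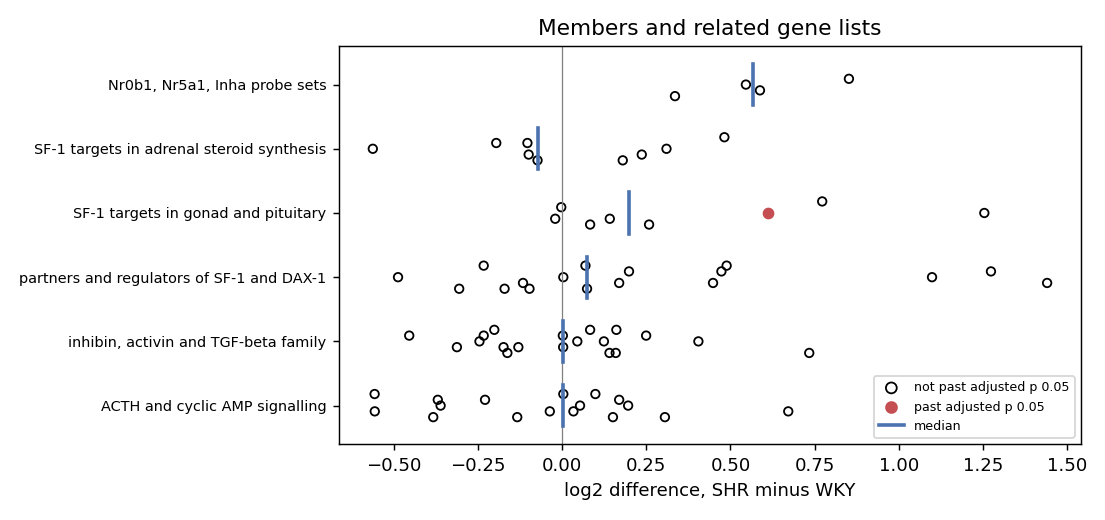
Log2 difference, SHR minus WKY, of the 4 probe sets of Nr0b1, Nr5a1 and Inha and of the tested genes of 5 related lists, with 1 point per probe set or gene and a bar at each median. Prlr, filled, is the 1 gene past an adjusted p of 0.05, and the list medians lie between -0.073 and 0.20.

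The genes most like each member were found by the root mean square difference between log2 values over the 6 arrays, each gene centred on its own mean, among 3143 other genes. For Nr0b1 they were Htr5a, a serotonin receptor gene, at 0.146, Gstm1, a glutathione transferase gene, at 0.149, and Foxs1, a forkhead factor gene, at 0.153. For Nr5a1 they were Rtf1, a transcription elongation factor gene, at 0.0602, the cytokine gene Il1b at 0.0693 and Zfand6 at 0.0698. For Inha by M32754cds_s_at they were the laminin gene Lamb2 at 0.0627, the magnesium transporter gene Slc41a2 at 0.0629 and Prlr at 0.0714. For Inha by M36453_at they were the glypican gene Gpc1 at 0.102, Lta4h, a leukotriene-forming hydrolase gene, at 0.108, and the cytochrome P450 gene Cyp2j3 at 0.114. The 2 Inha probe sets lay 0.159 apart in the same measure, and 41 genes were nearer to M32754cds_s_at than M36453_at was. Nr0b1 lay 0.387 from Nr5a1 and 0.356 from M32754cds_s_at.

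Each difference kept its sign in the 18 alternative fits. Since the strains did not overlap in any of the 4 probe sets, only quantile normalization and scaling to a common median could have turned a sign. The first run alone is not counted in what follows, because it rests on 1 SHR array. Each of the other fits left 0 of the 4 past the adjusted threshold, although 2 to 4 had an unadjusted limma p under 0.05. Inha by M32754cds_s_at ran from 0.51 to 0.65 and came nearest to a call under quantile normalization, with a limma adjusted p of 0.0521. Nr0b1 ran from 0.62 (without WKY replicate 1) to 1.05 (first run), Nr5a1 from 0.23 (without SHR replicate 2) to 0.45 (without SHR replicate 3) and M36453_at from 0.28 (first run) to 0.81 (fluidics module as a block). Without SHR replicate 2, the array of the high hexokinase ratio, the log2 differences were 0.92 for Nr0b1, 0.23 for Nr5a1, and 0.61 (M32754cds_s_at) and 0.48 (M36453_at) for Inha.

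**Figure D5:**
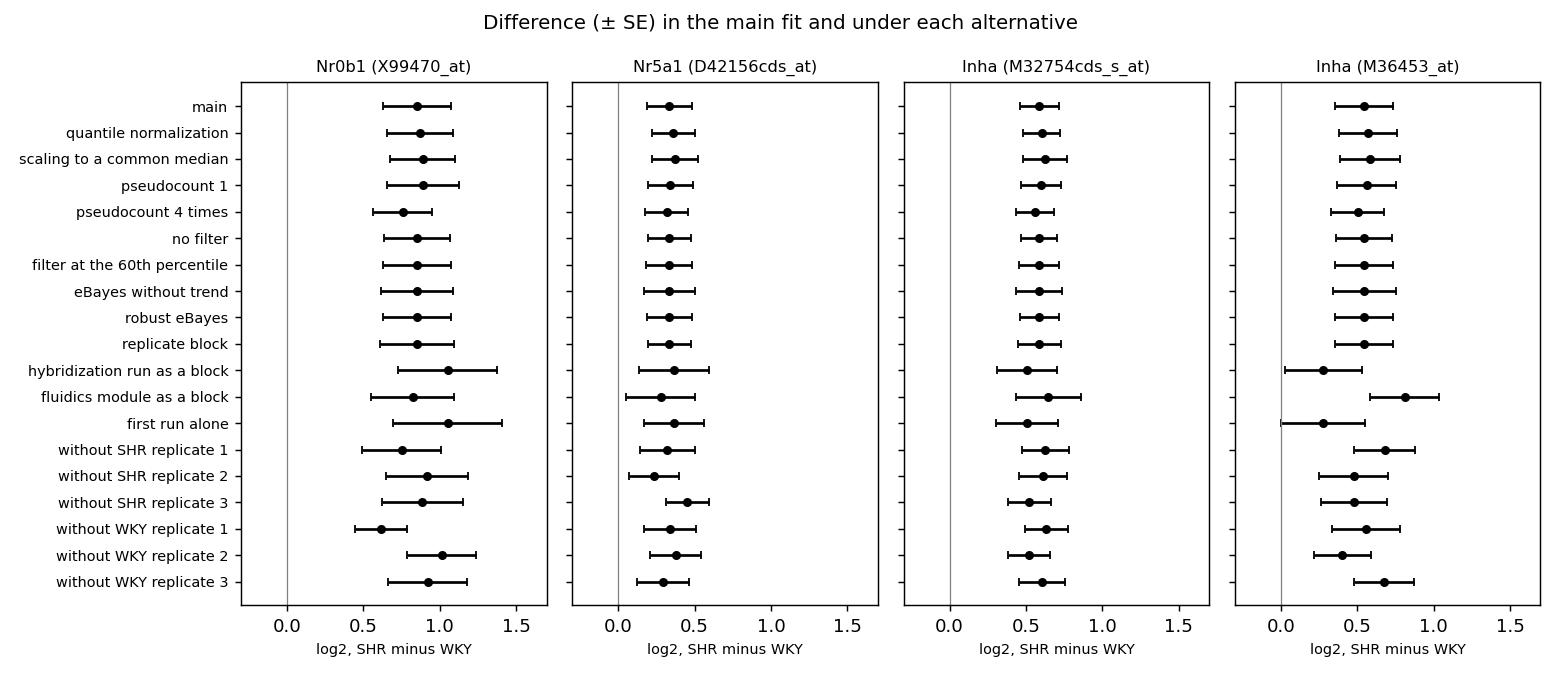
Log2 difference, SHR minus WKY, ± SE for each probe set of the 3 genes in the fit as reported (top row) and in 18 alternative fits. All points lie right of 0, which the lack of overlap fixed in all but the rescaled fits. The widest movement, from 0.28 to 0.81, is in the Inha probe set M36453_at.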

How the data were processed

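The authors deposited a table of linear intensity values, 1 for each probe set in each array, which share a common trimmed mean. The expression algorithm was not given in the sources used here. Array settings deposited by the authors, beside other values such as module numbers, showed 1 chip lot and 1 station, and 2 runs were set from hybridization times by a gap of over 60 minutes. Probe sets were named from the platform annotation and updated through the RefSeq table of GRCr8, and of 8740, 7006 had 1 symbol, 308 several and 1426 none. Values were taken as log2(intensity + 181.5), the 20th percentile of all values, and probe sets above the 40th percentile of mean log2 value were tested (5244). Strains were compared with limma 3.58.1 (lmFit and trended eBayes; R 4.3.3) over the 6 arrays, with Benjamini-Hochberg adjustment over all tested probe sets. A gene with several probe sets stood by its brightest. In a test on simulated data made like the SHR minus WKY comparison (10 simulations of 5244 probe sets), true log2 differences of 0.5, 1 and 2 were called in 5.22%, 46.1% and 84.5% of cases. Named genes were every probe set of the 3 genes, passing list members, up to 4 of smallest p per related list, Star, Cyp11a1, Dbh and Pnmt, and the 3 most alike per probe set. Inhba, Acvr1b, Acvr2b, Tgfbr3, Nr0b2, Nr4a1's replicates and the other medulla, smooth muscle, fibroblast and leukocyte markers were named after their values were seen. So were the dimmer probe sets of Jun, Prlr, Tgfbr3, Acvr2b, Prkaca, Nr0b2, Nr4a1, Nr4a3, Acta2 and Sparc. The genes and lists were chosen with earlier results of these data known. Alternatives were other scalings, pseudocounts, filters and variance priors, 3 blocks, the first run alone, and each array left out.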

Additional observations from a re-analysis of the deposited data

How the results depend on the processing

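The count of called probe sets, 102, was 94 to 109 under the other scalings and pseudocounts and with robust eBayes, and 83 and 97 with no filter and a filter at the 60th percentile. It was 60 without the trend, 46 with the fluidics module as a block, 20 when blocked by run, 1 for the first run by itself (fewer samples by construction) and 36 to 59 with 1 array left out. The call in the list of gonad and pituitary targets, 1, was 0 under each of these 5 kinds of fit and with the replicate number as a block (0 to 0 with 1 array left out), and the cause was not tested. Replicate numbers did not pair the arrays, since deviations of same-numbered arrays correlated at 0.00088, 0.011 and 0.071 across probe sets and SHR replicate 1 was nearer to WKY replicate 2. With that replicate block 53 probe sets were called, and in the list of partners 1 gene, Nr4a2. With the module as a block 2 genes of that list were called, Nr4a3 and Nr4a2. The difference of Nr0b1 minus Inha, 0.26, turned to -0.015 without WKY replicate 1, the array lowest in Nr0b1. With 1 array left out, Nr0b1 minus Inha ran from -0.015 to 0.49. The within-array values of the members against the cortex markers kept their sign in 9 of 9 alternatives each, with Nr5a1, 0.47, at 0.23 to 0.73 when 1 array was left out. For Nr0b1 and Inha the strains did not overlap, so leaving out 1 array could not turn the sign. At 3 arrays a strain, 5.22% of simulated differences of 0.5 were called.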
